A study of Mus musculus with 6 samples.

Results

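Ctgf and Cyr61, 2 matricellular genes, and Lrp1 and Lrp6, 2 receptor genes that their products are known to engage, were followed through retinal RNA sequencing at postnatal day 7. They were chosen by gene symbol, and all 4 had a row among the 13072 genes of the deposited gene table. Their 5 listed transcripts were taken by the same symbols from a table of 26721 transcripts. The study has 2 groups of 3 whole-retina libraries each, CTGF-/- and WT, both on the C57BL/6 strain background. The CTGF-/- mice were made deficient in connective tissue growth factor with inducible Cre/lox deletion, per the series' design text. Neither the Cre driver, the inducing agent and its timing, nor the exons removed are stated there or in the labels. Nothing in the labels ties each library to its own animal. The p-values therefore cover the variation among 3 and 3 libraries, some of which may be technical.

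Connective tissue growth factor (CTGF, now also named CCN2) and CYR61 (CCN1) are secreted cysteine-rich proteins of the CCN family. They sit in the extracellular matrix, bind integrins, heparan sulphate proteoglycans and growth factors, and are made by endothelial cells, pericytes and glia among others. LRP1 is a large endocytic receptor of the low-density lipoprotein (LDL) receptor family that takes up proteases, lipoproteins and matrix proteins, CTGF among them. LRP6 is the co-receptor that works with Frizzled proteins in Wnt and Norrin signalling, and CTGF is known to bind it. In the retina, Norrin signalling through Frizzled-4 and LRP co-receptors is required for the growth of the deeper vessels.

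Ctgf (ENSMUSG00000019997.11) lies at chr10:24595442-24598683 on the plus strand of GRCm38, and Cyr61 (ENSMUSG00000028195.4) at chr3:145646976-145649981 on the minus strand. In the GENCODE M21 annotation of the same build, the listed transcript of each has 5 exons, of which exon 1 carries 63 coding bases in both. Exons 2 to 5 of Ctgf-201 carry 223, 252, 212 and 294 coding bases, and those of Cyr61-201 carry 214, 345, 215 and 300. In CCN genes exon 1 encodes the signal peptide, and the exons after it encode the insulin-like growth factor binding, von Willebrand type C, thrombospondin type 1 and cystine knot modules. The coding bases of exon 1 are shown because the genes have the same length there, with capitals for bases identical at the same position in both (28 of 63); the Ctgf run is chr10:24595726-24595788 and the Cyr61 run is chr3:145649730-145649792, each read on its own strand.
Ctgf-201: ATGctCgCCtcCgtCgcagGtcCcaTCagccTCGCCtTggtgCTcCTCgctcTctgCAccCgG
Cyr61-201: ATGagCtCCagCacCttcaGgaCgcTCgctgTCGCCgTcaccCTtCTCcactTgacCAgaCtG
Over 1015 aligned coding bases the genes were 65.7% identical, and the longest run shared by their whole transcripts was 18 bases. Reads of 150 cycles are much longer than that run.

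Lrp1 (ENSMUSG00000040249.15) spans chr10:127538161-127621148 and Lrp6 (ENSMUSG00000030201.15) chr6:134446476-134566965, both on the minus strand. The listed Lrp1-201 has 89 exons and Lrp6-201 has 23. A short transcript, Lrp6-203, was listed beside Lrp6-201. It joins exon 1 directly to exon 3 of Lrp6-201 and skips exon 2 of 394 bases (chr6:134541652-134542045). Of its 722 bases, 670 lie in exons of Lrp6-201, so the 2 transcripts differ by the joins below, by 52 bases of its own and by where they end. Each sequence is 30 bases across a join, and capitals mark the bases of the downstream exon.
Lrp6-201, exon 1 to exon 2: gcgtgctgctgagagCGGCCCCTTTGTTGC
Lrp6-201, exon 2 to exon 3: agatccatcaagtggGTTCATGTACTGGAC
Lrp6-203, exon 1 to exon 3 of Lrp6-201: gcgtgctgctgagagGTTCATGTACTGGAC

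The deposited values are FPKM, fragments per kilobase of feature scaled to the mapped fragments of the library, so levels of different genes can be set side by side. The tables hold no read counts and the depth of the libraries is unknown. Gene FPKM summed to 217674 to 230474 per CTGF-/- library and 208436 to 216436 per WT library, so these totals did not overlap. None of the 4 genes was listed at 0 in any library. Neuronal and photoreceptor markers of the retina were abundant in every library (12 of 12 listed, summed FPKM 791 to 904 in CTGF-/- and 670 to 858 in WT). Lens markers stood apart by library (10 of 10 listed, summed FPKM 266 to 4420 in CTGF-/- and 2.85 to 627 in WT), with Crygs, Cryge, Mip and Lim2 listed at 0 in at least 1 library. WT replicates 2 and 3 held next to no lens RNA, and CTGF-/- replicate 3 held the most. With limma 0 of the 10 lens genes passed the adjusted threshold of 0.05, and 7 had an unadjusted p under 0.05, all higher in CTGF-/-, as 3.83% of all genes tested were.

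Ctgf, the targeted gene, was near the bottom of the table in both groups. Its level was 0.587, 1.0 and 0.526 FPKM in CTGF-/- replicates 1 to 3, against 0.932, 0.777 and 1.51 FPKM in WT replicates 1 to 3. CTGF-/- replicate 2 lay above 2 of the 3 WT libraries, so the groups overlapped. Ctgf averaged 0.704 ± 0.258 FPKM in CTGF-/- and 1.07 ± 0.387 FPKM in WT (SD, n = 3 each), a ratio of means of 0.656. Its position among all listed genes ran from the 2.73 to the 14.1 percentile over the libraries. These percentiles leave out the genes of lower level that the table does not list. The difference of mean log2(FPKM + 1), CTGF-/- minus WT, was −0.28 (SE 0.17, 95% interval −0.67 to 0.11) and did not pass limma's moderated test with Benjamini-Hochberg adjustment over the 12915 genes tested (adjusted p = 0.571).

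The WT mean of Ctgf on this scale was 1.04, so 0 FPKM in all CTGF-/- libraries would have given −1.04, which lies outside that interval. Ctgf RNA was thus listed in all 3 CTGF-/- libraries at a level that the test did not separate from WT. Reads from any exons left in place would still count, and the exons removed are not stated, so this gene does not check the genotype labels. The source of the Ctgf RNA in the CTGF-/- libraries was not tested. The difference was −0.13 without WT replicate 3 and −0.40 without CTGF-/- replicate 2. With a pseudocount of 0.1 it was −0.54 (adjusted p = 0.57), since a pseudocount of 1 shrinks differences of genes this low. In the authors' deposited table, Ctgf had a fold change of 0.825 with p = 0.225 and q = 0.668. That fold is the log2 difference of −0.28 on log2(FPKM + 1) written as a ratio, so the added 1 FPKM sets it apart from the ratio of FPKM means.

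The transcript Ctgf-201 (ENSMUST00000020171.11) followed the gene. It was at 0.659, 1.19 and 0.625 FPKM in CTGF-/- replicates 1 to 3, against 1.11, 0.925 and 1.72 FPKM in WT replicates 1 to 3. The same CTGF-/- replicate 2 overlapped WT, and the log2 difference was −0.30 (SE 0.22, 95% interval −0.85 to 0.25, limma adjusted p = 0.819). The gene value was 0.838 to 0.89 times the transcript value in every library. M21 annotates 3 protein-coding transcripts of Ctgf, and the other 2 are not analysed here.

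Cyr61, whose product shares the CTGF modules and binds many of the same integrins, was at a similar level. It had 1.06, 1.04 and 0.999 FPKM in CTGF-/- replicates 1 to 3, against 1.1, 0.910 and 1.5 FPKM in WT replicates 1 to 3. The CTGF-/- libraries lay close together and inside the range of WT. Cyr61 averaged 1.03 ± 0.0315 FPKM in CTGF-/- and 1.17 ± 0.302 FPKM in WT (SD, n = 3 each). On the log2 scale the difference was −0.08 (SE 0.12, 95% interval −0.36 to 0.19, limma adjusted p = 0.785), and it was 0.02 without WT replicate 3. Its transcript Cyr61-201 (ENSMUST00000029846.4) is the only one annotated, and gene and transcript values were the same.

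Within a library, Ctgf was below Cyr61 in 5 of 6 libraries, and their ranges overlapped, so their levels could not be ordered. The ratio of Ctgf to Cyr61 FPKM was 0.553, 0.962 and 0.527 in CTGF-/- replicates 1 to 3, against 0.851, 0.854 and 1.01 in WT replicates 1 to 3. CTGF-/- replicates 1 and 3 were the low ones and replicate 2 lay among WT. Ctgf minus Cyr61 in log2(FPKM + 1) averaged −0.26 ± 0.21 in CTGF-/- and −0.07 ± 0.07 in WT (SD, n = 3 each). The difference of −0.19 had a two-sided exact permutation p of 0.3, where 3 against 3 libraries cannot go below 0.1.

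Lrp1, the endocytic receptor gene, was the most abundant of the 4. Its level was 9.09, 13.6 and 11.3 FPKM in CTGF-/- replicates 1 to 3, against 10.7, 13.3 and 12.1 FPKM in WT replicates 1 to 3. The highest and the lowest library were both CTGF-/-, so WT lay within the CTGF-/- range. Lrp1 averaged 11.3 ± 2.27 FPKM in CTGF-/- and 12.1 ± 1.30 FPKM in WT (SD, n = 3 each). Its log2 difference of −0.10 (SE 0.15, 95% interval −0.44 to 0.25) did not pass limma (adjusted p = 0.808), and it was 0.04 without CTGF-/- replicate 1. Lrp1-201 (ENSMUST00000049149.14) gave −0.12 (SE 0.17, 95% interval −0.54 to 0.29, adjusted p = 0.863). M21 annotates 10 transcripts of Lrp1, and only Lrp1-201 was analysed.

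Lrp6, the Wnt co-receptor gene, was the only one of the 4 whose groups did not overlap. It had 7.69, 5.84 and 7.24 FPKM in CTGF-/- replicates 1 to 3, against 7.73, 8.80 and 7.71 FPKM in WT replicates 1 to 3. The gap between the highest CTGF-/- library and the lowest WT library was in the second decimal. Groups did not overlap in 18.5% of all genes tested, in 10.9% with CTGF-/- the lower one and in 7.53% with CTGF-/- the higher one. Lrp6 averaged 6.92 ± 0.964 FPKM in CTGF-/- and 8.08 ± 0.627 FPKM in WT (SD, n = 3 each), a ratio of 0.857. The log2 difference was −0.20 (SE 0.12, 95% interval −0.47 to 0.07, limma adjusted p = 0.564), and −0.10 without CTGF-/- replicate 2.

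**Figure D1:**
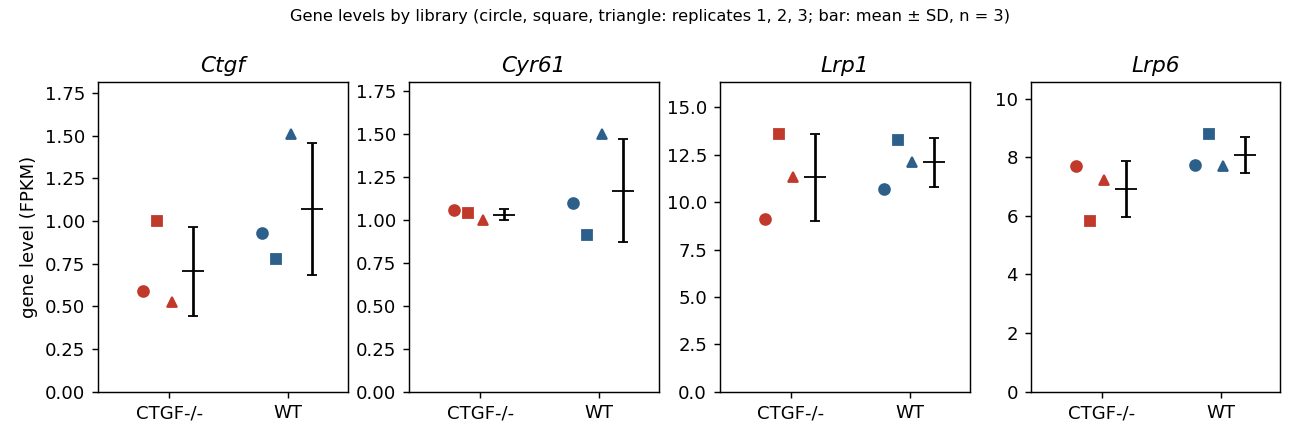
Gene level in FPKM of Ctgf, Cyr61, Lrp1 and Lrp6 in the 3 CTGF-/- libraries (red) and the 3 WT libraries (blue). Points are libraries, and bars are the mean ± SD (n = 3). The groups overlap for Ctgf, Cyr61 and Lrp1, and WT replicate 3 is the highest library for Ctgf (1.51 FPKM) and Cyr61 (1.5 FPKM).

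M21 annotates 6 transcripts of Lrp6, of which 2 were listed, and their differences had opposite signs. Lrp6-201 (ENSMUST00000032322.14), the full-length form, was at 10.4, 7.80 and 9.68 FPKM in CTGF-/- replicates 1 to 3, against 10.6, 12.1 and 10.6 FPKM in WT replicates 1 to 3. Lrp6-203 (ENSMUST00000126836.3), the form without exon 2, was at 0.167, 2.0 and 1.22 FPKM in CTGF-/- replicates 1 to 3, against 0.408, 0.362 and 0.690 FPKM in WT replicates 1 to 3. CTGF-/- replicates 2 and 3 were thus the highest for Lrp6-203, and CTGF-/- replicate 1 the lowest. The groups did not overlap for Lrp6-201, as in 13.4% of all transcripts tested and in 7.53% with CTGF-/- the lower one. Its log2 difference was −0.24 (SE 0.14, 95% interval −0.58 to 0.11, limma adjusted p = 0.819). For Lrp6-203 it was 0.42 (SE 0.37, 95% interval −0.48 to 1.32, adjusted p = 0.822).

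As a share of the summed Lrp6 transcript FPKM, Lrp6-203 made up 1.58%, 20.4% and 11.2% in CTGF-/- replicates 1 to 3, against 3.69%, 2.91% and 6.13% in WT replicates 1 to 3. The mean share was 11.1 ± 9.41% in CTGF-/- and 4.25 ± 1.68% in WT (SD, n = 3 each). This difference of 6.82 percentage points was within the spread of the CTGF-/- libraries (two-sided exact permutation p = 0.4), and it was 2.15 without CTGF-/- replicate 2 and 11.6 without CTGF-/- replicate 1. CTGF-/- replicate 2 had 1875 transcripts listed at 0, where each of the others had 716 to 861, and the part of this in the share was not tested.

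**Figure D2:**
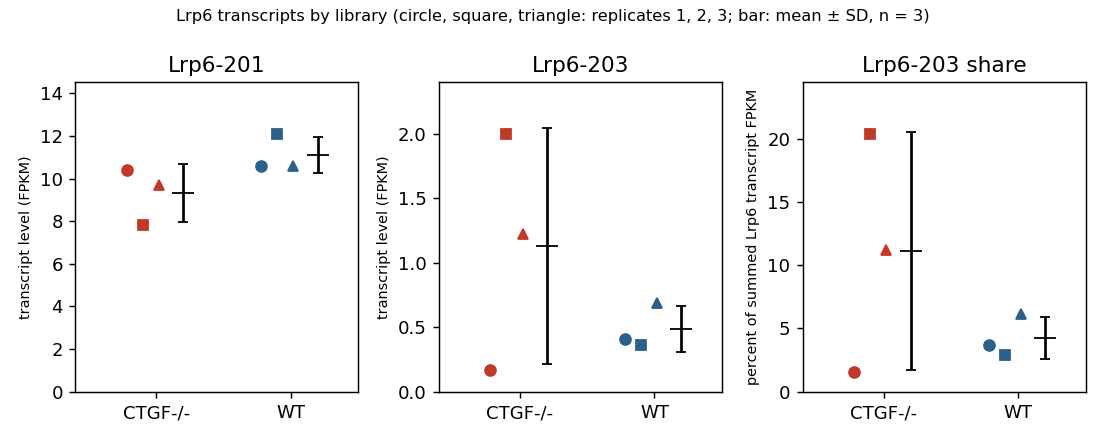
Lrp6-201 and Lrp6-203 in FPKM and the share of Lrp6-203 in their sum in percent, for CTGF-/- (red) and WT (blue) libraries with mean ± SD (n = 3). The share ranges from 1.58% to 20.4% among the CTGF-/- libraries, wider than the 2.91% to 6.13% among WT.

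All 4 genes had a lower mean in CTGF-/-, as did 55.1% of all genes tested. With limma 0 of the 4 passed the adjusted threshold of 0.05, and 0 had an unadjusted p under 0.05. A linear model without moderation also gave 0 and 0. Over all genes 0.0465% passed the adjusted threshold and 9.32% the unadjusted one. Of the 5 transcripts 4 were lower, beside 51.8% of all transcripts. None of the 5 (0) passed either threshold with limma or without moderation, where 0.0239% of all transcripts passed the adjusted and 5.05% the unadjusted one with limma. None of the 4 genes is in the authors' deposited lists of differentially expressed genes (16 higher and 14 lower) or transcripts.

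In order of level, Ctgf and Cyr61 stood lowest, then Lrp6 at 5.84 to 8.80 FPKM and Lrp1 at 9.09 to 13.6 FPKM. The ranges of Lrp6 and Lrp1 did not overlap, and Lrp6 was below Lrp1 in 6 of 6 libraries. Among 13 genes of the LDL receptor family, Lrp1 ranked 6 and Lrp6 ranked 8 by mean FPKM. The most abundant member was Lrp4, a receptor known for agrin at the neuromuscular junction, with 50.7, 47.9 and 44.8 FPKM in CTGF-/- against 43.3, 44.0 and 41.7 FPKM in WT. Its groups did not overlap, as in 7.53% of all genes tested with CTGF-/- the higher one (log2 difference 0.15, SE 0.08, limma adjusted p = 0.553). Lrp5, the close relative of Lrp6 that Norrin signalling needs in retinal vessels, was at 4.09 ± 0.44 FPKM in CTGF-/- and 4.34 ± 0.359 FPKM in WT (SD, n = 3 each), below every Lrp6 value.

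Leaving out Lrp1 and Lrp6, 6 of 11 family genes were lower and 5 higher, with a median log2 difference of −0.01 beside −0.02 for all genes, and 0 passed limma at either threshold. Ldlrad3, a family member with LDL receptor class A repeats, was at 3.68 ± 0.555 FPKM in CTGF-/- and 4.53 ± 0.128 FPKM in WT (SD, n = 3 each). Its groups did not overlap, as in 10.9% of all genes tested with CTGF-/- the lower one. Lrp11 was at 8.87 ± 2.62 FPKM in CTGF-/- and 6.70 ± 0.328 FPKM in WT (SD, n = 3 each). The least abundant of them was Lrp2, the gene of the endocytic receptor megalin, at 1.09 to 1.82 FPKM over all libraries.

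**Figure D3:**
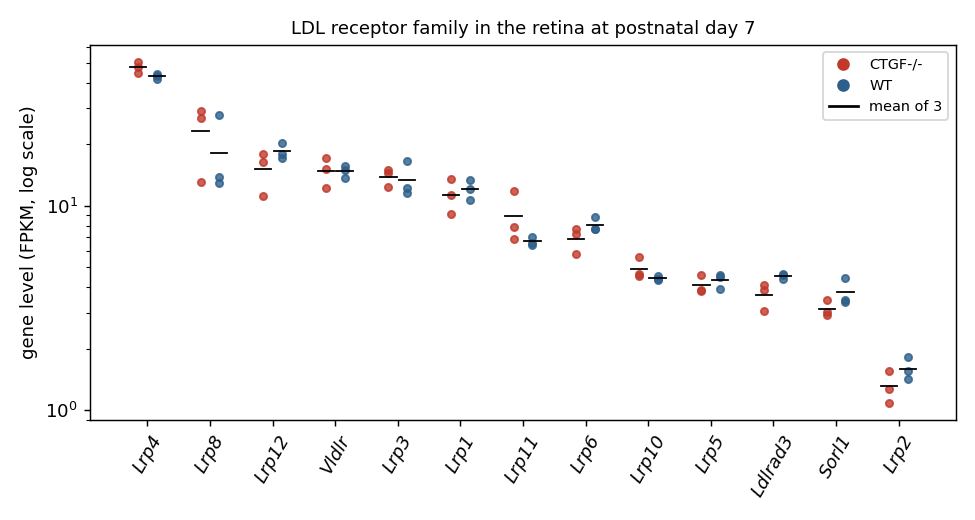
Gene level in FPKM (log axis) of 13 LDL receptor family genes in CTGF-/- (red) and WT (blue) libraries, with the mean of 3 as a line, sorted by mean level. Lrp1 and Lrp6 lie in the middle, between Lrp4 at 41.7 to 50.7 FPKM and Lrp2 at 1.09 to 1.82 FPKM.

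Among genes that serve the LRP receptors, of 18 folding, cleavage and adaptor genes 10 were lower and 8 higher (median −0.02), and 0 passed the adjusted threshold. At an unadjusted limma p under 0.05 there were 3, all lower in CTGF-/-, beside 5.49% of all genes. These were Adam10, a sheddase, and the adaptors Dab1 and Picalm. Adam10 was at 23.9 ± 3.03 FPKM in CTGF-/- and 29.9 ± 2.88 FPKM in WT. Dab1 was at 7.12 ± 0.77 FPKM in CTGF-/- and 8.77 ± 0.285 FPKM in WT. Picalm was at 9.70 ± 1.41 FPKM in CTGF-/- and 11.8 ± 0.468 FPKM in WT (SD, n = 3 each for all). Their log2 differences were −0.32, −0.27 and −0.27 (limma adjusted p = 0.533 for each).

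Of 15 genes for LRP1 ligands 10 were lower and 5 higher (median −0.01), and 0 passed limma at either threshold. Lpl, lipoprotein lipase, was at 2.39 ± 0.169 FPKM in CTGF-/- and 3.33 ± 0.919 FPKM in WT. Midkine (Mdk) was at 29.2 ± 4.07 FPKM in CTGF-/- and 34.1 ± 0.967 FPKM in WT, and apolipoprotein E (Apoe) at 88.9 ± 7.60 FPKM in CTGF-/- and 77.6 ± 7.84 FPKM in WT (SD, n = 3 each). The most abundant was the chaperone gene Hsp90aa1, at 252 ± 28.4 FPKM in CTGF-/- and 252 ± 2.23 FPKM in WT.

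Of 29 Wnt genes around LRP6, among them Frizzled receptors, antagonists and intracellular partners, 18 were lower and 11 higher (median −0.05), and 0 passed the adjusted threshold. Limma gave 5 an unadjusted p under 0.05, all lower, beside 5.49% of all genes. Gsk3b, the kinase of the beta-catenin destruction complex, was at 30.8, 26.4 and 30.4 FPKM in CTGF-/- replicates 1 to 3, against 35.3, 38.2 and 35.6 FPKM in WT replicates 1 to 3. The R-spondin receptor gene Lgr4 was at 14.4 ± 1.03 FPKM in CTGF-/- and 17.9 ± 0.952 FPKM in WT, and Fzd3 at 9.60 ± 0.956 FPKM in CTGF-/- and 12.3 ± 1.57 FPKM in WT (SD, n = 3 each). On the log2 scale these differed by −0.31, −0.30 and −0.33 (limma adjusted p = 0.533 for each), and these groups did not overlap. Of all genes tested 10.9% had such groups with CTGF-/- the lower one, and these genes were named for their small p. Dkk3, the most abundant of the list, was at 93.8 ± 15.3 FPKM in CTGF-/- and 111 ± 5.68 FPKM in WT.

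Among binding partners of the CCN proteins, of 10 integrin and proteoglycan genes 5 were lower and 5 higher, and 0 passed the adjusted threshold, with 1 lower and 1 higher at an unadjusted limma p under 0.05 (5.49% and 3.83% of all genes). Itgb1, the shared beta chain of many matrix receptors, was at 27.5 ± 0.791 FPKM in CTGF-/- and 33.4 ± 0.924 FPKM in WT, and Itgb5 at 25.6 ± 1.78 FPKM in CTGF-/- and 22.1 ± 0.888 FPKM in WT (SD, n = 3 each; limma adjusted p = 0.533 for both). Itgam, an alpha chain of leukocyte integrins, was at 0.369 ± 0.321 FPKM in CTGF-/- and 0.802 ± 0.325 FPKM in WT (SD, n = 3 each; limma adjusted p = 0.543).

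Of 12 growth factor and receptor genes 9 were lower and 3 higher (median −0.06), and 0 passed the adjusted threshold. At an unadjusted limma p under 0.05 there were 1 lower, Igf1, and 1 higher, Igf2, beside 5.49% and 3.83% of all genes. Igf1 was at 2.70 ± 0.244 FPKM in CTGF-/- and 3.43 ± 0.192 FPKM in WT. Igf2 varied widely, with 24.9, 15.5 and 10.3 FPKM in CTGF-/- replicates 1 to 3, against 4.65, 13.1 and 4.90 FPKM in WT replicates 1 to 3. Vegfa, whose product CTGF binds, was at 27.3 ± 2.35 FPKM in CTGF-/- and 28.6 ± 5.43 FPKM in WT (SD, n = 3 each). Tgfb1, a growth factor gene near the filter on low values, was at 0.465 ± 0.0733 FPKM in CTGF-/- and 0.574 ± 0.00871 FPKM in WT (SD, n = 3 each; limma adjusted p = 0.654). Nov, Wisp1, Wisp2 and Wisp3, the other 4 CCN genes, are not analysed here.

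Of 23 genes of pathways that control Ctgf and Cyr61, 16 were lower and 7 higher (median −0.12), and 1 passed the adjusted threshold. Not all of them are inducers, since Lats1 (−0.14) and Lats2 (−0.11), both among the lower, encode kinases that restrain YAP and TAZ. At an unadjusted limma p under 0.05 there were 2 lower, Wwtr1 and Yap1, and 1 higher, beside 5.49% and 3.83% of all genes. The one past both thresholds was Tead1, a DNA-binding partner of YAP and TAZ, at 5.84, 6.00 and 6.13 FPKM in CTGF-/- replicates 1 to 3, against 0.901, 1.15 and 1.28 FPKM in WT replicates 1 to 3 (log2 difference 1.73, SE 0.10, limma adjusted p = 0.00219). Of all genes 0.00774% passed in this direction, which is Tead1 alone. It did not pass without moderation (adjusted p = 0.124) or without replicate 3 of both groups (log2 difference 1.77, adjusted p = 0.122). The coactivator genes lay the other way. Their groups did not overlap, as in 10.9% of all genes tested with CTGF-/- the lower one. Wwtr1, which encodes TAZ, was at 7.14, 7.11 and 7.12 FPKM in CTGF-/- against 9.54, 9.01 and 9.07 FPKM in WT. Yap1 was at 2.19, 1.65 and 2.28 FPKM in CTGF-/- against 2.94, 2.59 and 2.72 FPKM in WT. Their log2 differences of −0.33 (SE 0.08) and −0.31 (SE 0.11) did not pass limma (adjusted p = 0.533 for both). Hif1a, the most abundant of the list, was at 82.6 ± 13.2 FPKM in CTGF-/- and 92.3 ± 5.87 FPKM in WT (SD, n = 3 each).

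Ctgf and Cyr61 are textbook targets of TEAD factors, so the promoter of Cyr61 is shown beside the Tead1 result. The RefSeq promoter table (GRCm38.p6) matched 2 of the 4 genes, Cyr61 (as Ccn1) and Lrp1. The 250 bases before the Cyr61 start, chr3:145649986-145650235 on the minus strand, were searched on both strands for the TEAD motif CATTCC and for the TATA box TATAAA, and capitals mark the matches, which do not overlap.
Cyr61 promoter: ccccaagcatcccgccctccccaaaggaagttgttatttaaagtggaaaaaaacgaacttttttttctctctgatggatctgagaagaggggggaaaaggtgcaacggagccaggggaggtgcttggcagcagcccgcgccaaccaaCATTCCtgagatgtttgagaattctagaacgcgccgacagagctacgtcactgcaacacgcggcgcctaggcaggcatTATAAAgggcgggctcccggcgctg
The CATTCC match begins 103 bases before the gene start and the TATAAA match 25 bases before it. Among the same 250-base windows of 32851 promoters, 12.6% hold the TEAD motif and 12.4% the TATA box on either strand. Tead1 was at 5.38 times its WT mean in CTGF-/- retinas. Cyr61 was at 0.883 times and Ctgf, itself the targeted gene, at 0.656 times theirs, with no difference called for either. Whether Tead1 acts on Cyr61 or Ctgf in these retinas was not tested.

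**Figure D4:**
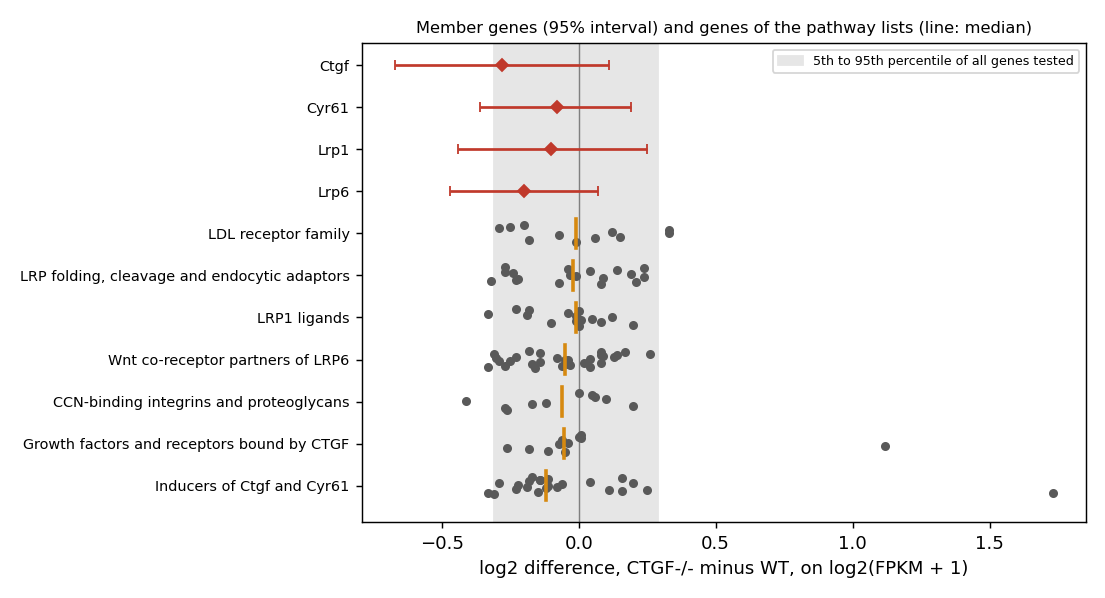
Log2 difference, CTGF-/- minus WT, on log2(FPKM + 1) for the 4 genes (red, with 95% interval) and for the genes of 7 pathway lists (grey points, orange line at the median). The band runs from −0.31 to 0.29, the 5th to 95th percentile of all genes tested. All 4 intervals include 0, and Tead1 (1.73) and Igf2 (1.12) lie farthest from it.

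Taking each gene once, 116 genes of these lists were tested. At an unadjusted limma p under 0.05 there were 15, 12 lower and 3 higher, where 9.32% of all genes passed it. Groups did not overlap in 21 of the 116 (18.1%), close to the 18.5% of all genes.

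Vascular markers differed between the libraries too. Of 10 endothelial markers 8 were listed, none of them at 0 in any library. All 8 were lower on average in CTGF-/-, as were 55.1% of all genes tested. Their summed FPKM was 37.4 to 38.8 in CTGF-/- and 45.2 to 54.5 in WT. With limma 0 passed the adjusted threshold. Kdr alone (1 of 8) had an unadjusted p under 0.05, and 5.49% of all genes did so with CTGF-/- the lower one. Kdr, which retinal neurons also express, made up most of this sum. Without Kdr, a choice made after the values were seen, the sum was 7.59, 11.5 and 7.57 FPKM in CTGF-/- replicates 1 to 3, against 10.8, 8.05 and 22.2 FPKM in WT replicates 1 to 3. Ctgf and this sum ranked the 6 libraries in the same order, with WT replicate 3 highest and CTGF-/- replicate 3 lowest. Cldn5 was the largest part of the sum, at 3.29, 6.24 and 3.24 FPKM in CTGF-/- against 4.94, 3.49 and 11.3 FPKM in WT. It had this order too, and none of the other markers in the sum did. Pecam1 was lowest in CTGF-/- replicate 1 (0.417 FPKM) and Eng in WT replicate 1 (0.872 FPKM). Haemoglobin genes of the microglia and blood list, summed apart after the values were seen, were also highest in WT replicate 3. They summed to 169, 323 and 138 FPKM in CTGF-/- replicates 1 to 3. In WT replicates 1 to 3 the sums were 188, 94.0 and 610 FPKM. Of the rest of that list, Alas2 was highest there too, and Aif1, Csf1r, Cx3cr1 and P2ry12 were highest in other libraries.

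Ctgf amounted to 7.73%, 8.70% and 6.95% of the endothelial sum without Kdr in CTGF-/- replicates 1 to 3, against 8.60%, 9.66% and 6.81% in WT replicates 1 to 3. The groups overlapped in this share, with WT holding both the highest and the lowest. For Cyr61, whose order over the libraries differed, the share was 9.04% to 14.0% in CTGF-/- and 6.76% to 11.3% in WT. Pericyte and smooth muscle markers (3 of 10 listed, none at 0) summed to 9.09 to 11.6 FPKM in CTGF-/- and 10.2 to 20.4 FPKM in WT. Pigment epithelium markers (7 of 10 listed) summed to 52.6 to 60.1 FPKM in CTGF-/- and 33.8 to 59.8 FPKM in WT. All 7 were higher on average in CTGF-/-, where 55.1% of all genes tested were lower. With limma 0 of the 7 passed the adjusted threshold. An unadjusted p under 0.05 was found for 1, as for 3.83% of all genes in this direction. Microglia and blood markers (9 of 10 listed) summed to 147 to 333 FPKM in CTGF-/- and 104 to 622 FPKM in WT. Markers of Mueller glia and astrocytes (9 of 10 listed, none at 0) summed to 275 to 281 FPKM in CTGF-/- and 269 to 291 FPKM in WT. Of these 9 genes 6 were lower and 3 higher, and 0 passed the adjusted threshold with limma. Glul, Gfap and Pdgfra had an unadjusted p under 0.05 and groups that did not overlap, all 3 lower in CTGF-/-. In that direction 5.49% of all genes tested had such a p, and 10.9% had groups that did not overlap. Apoe, the most abundant, had a higher mean in CTGF-/-. Without WT replicate 3 and CTGF-/- replicate 3, a choice made after the values were seen, the log2 difference was −0.06 for Ctgf and 0.04 for Cyr61. In whole retina, fewer vascular cells and less Ctgf RNA per cell cannot be told apart, and the part of these markers in the Ctgf and Cyr61 values was not tested.

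**Figure D5:**
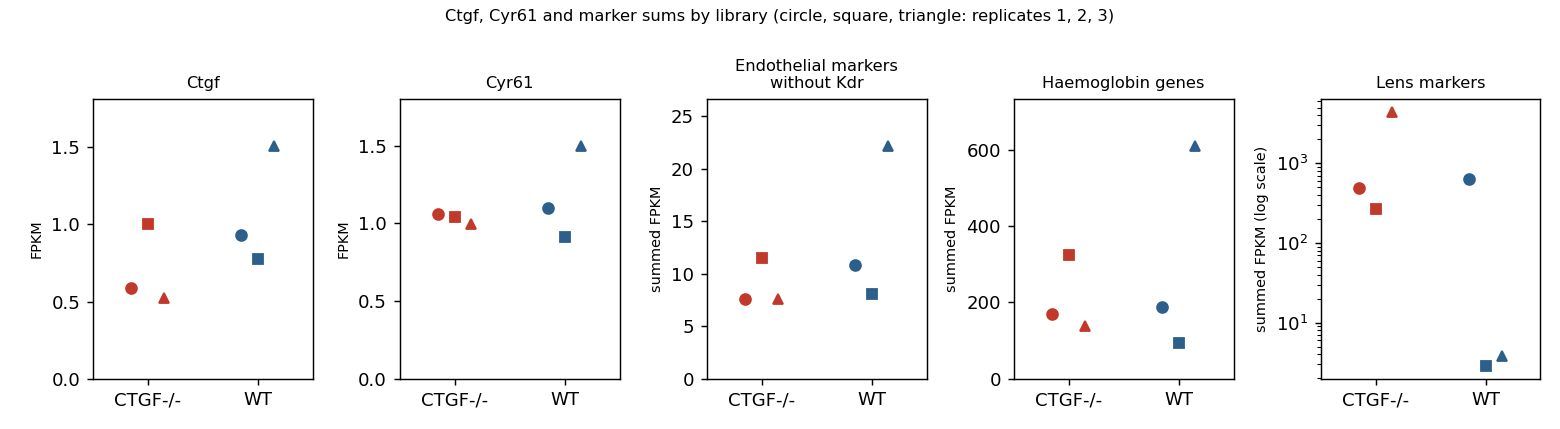
Ctgf and Cyr61 (FPKM) beside the summed FPKM of 7 endothelial markers without Kdr, of 4 haemoglobin genes and of 10 lens markers (log axis), by library. The endothelial sum without Kdr and the haemoglobin sum were chosen after the values were seen. WT replicate 3 (blue triangle) is highest in the first 4 panels, and CTGF-/- replicate 3 (red triangle) is highest for lens markers and lowest for Ctgf (0.526 FPKM).

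Likeness of profile was measured as the root mean square distance between library deviations from the mean, in log2(FPKM + 1) over the 6 libraries. The genes nearest to Ctgf were Grrp1 (distance 0.0507), Zfp593 (0.0572) and Esam (0.0593), where the profile of Ctgf itself had a root mean square of 0.238. Esam encodes an endothelial adhesion molecule and is 1 of the endothelial markers above. It was at 0.718, 1.16 and 0.643 FPKM in CTGF-/- replicates 1 to 3, against 0.935, 0.985 and 1.87 FPKM in WT replicates 1 to 3. The nearest to Cyr61 were Jazf1 (0.0145), Ltk (0.0213) and Slc25a29 (0.0279), to Lrp1 Zmiz1 (0.00877), Ttc28 (0.02) and Adar (0.0239), and to Lrp6 D3Ertd254e (0.0293), Carnmt1 (0.0296) and Hnrnph2 (0.0296). With 6 libraries and 12915 genes, close neighbours of any profile are to be found, and they carry no test.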

How the data were processed

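Per the submitters' processing notes, reads were checked with FastQC, trimmed with cutadapt, aligned to GRCm38 with HISAT2, and StringTie gave the abundances. Ballgown, named in the series' design text, made the FPKM values and the authors' comparison. No version of these tools is stated. The authors deposited FPKM per gene and per transcript, a log2 fold change, a linear fold ratio, and a p-value and q-value for each feature. Their group means are log2 values, although headed FPKM.

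From these, log2(FPKM + 1) was tested with limma 3.58.1 in R 4.3.3 (lmFit, eBayes with trend), for the 12915 genes and 25082 transcripts averaging 0.5 FPKM or more. The Benjamini-Hochberg adjustment ran over all features tested, and the threshold was 0.05. The fit was tested on simulated data. Single values per library were compared by two-sided exact permutation. Sequences come from GENCODE M21 and RefSeq. The members, the 8 pathway lists and the 7 marker lists were chosen with earlier results of these data known. Named genes are the members, the most abundant gene of each list, the 3 of smallest p in each pathway list and the 3 nearest profiles per member. Of the most abundant marker genes, Crx, Rgs5, Ttr and Hbb-bs are given only within their sums. One further list gene is not reported here. Lrp2, Lrp5 and other marker genes named were added after their values were seen. Alternatives were another pseudocount, filter, scaling or model, a replicate block, and leaving out libraries.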

Additional observations from a re-analysis of the deposited data

How the results depend on the processing

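None of the 4 genes and none of the 5 transcripts passed the adjusted threshold under any alternative that tested it, of 15 run, 1 of them without limma's moderation. Ctgf stayed lower in CTGF-/- in all 14 alternatives that tested it (log2 difference −0.54 to −0.06, adjusted p 0.444 to 0.904); with a minimum mean of 1 FPKM neither Ctgf nor Lrp6-203 was tested. Lrp6 stayed lower in all 15 (−0.27 to −0.10). Ctgf minus Cyr61 stayed negative (−0.405 to −0.092). Leaving out 1 library at a time gave −0.17 to 0.02 for Cyr61 and for Cyr61-201 and −0.23 to 0.04 for Lrp1. Among other features it gave −0.27 to 0.01 for Lrp1-201, −0.21 to 0.04 for Vegfa and −0.05 to 0.09 for Hsp90aa1. The alternative without both replicates numbered 3, of CTGF-/- and of WT, was chosen after seeing the data, because they held the most lens and the most vascular and blood RNA. It gave 0.04 for Cyr61 and Cyr61-201 and −0.06 for Ctgf. The genes called over the whole table numbered 6, but 1 without moderation, 2 to 9 without 1 library (2 without each WT library in turn) and 0 without both (935 at an unadjusted p under 0.05). Tead1 was then no longer called without moderation (0 pathway genes called, 9 at an unadjusted p under 0.05) or without both (0 called, 12 unadjusted). Its difference was 1.73 and 1.77 there (adjusted p 0.124 and 0.122), within 1.66 to 2.34 over all alternatives. With a replicate block 2 genes were called and none of the members. Same-numbered libraries correlated at 0.0129, 0.171 and −0.156 in their deviations, and differently numbered ones at −0.305 to 0.371. These few values cannot settle whether the numbers pair the libraries. The cause of these changes was not tested. Depth is unknown, which limits Ctgf and Cyr61 most, since both are near 1 FPKM.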
